A study of Mus musculus with 6 samples.

Results

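The genes described here encode the proteins that build caveolae, the diaphragm protein Plvap and the Ehd ATPases that shape endocytic membranes. They were chosen by symbol: the caveolins Cav1 and Cav2, the cavins Ptrf, Sdpr and Prkcdbp (now Cavin1, Cavin2 and Cavin3), Plvap, and Ehd1, Ehd2, Ehd3 and Ehd4. These are 10 of the 23472 named genes in a table of 56825 entries, each with 1 entry, and all 10 passed the filter on low counts. The libraries came from liver sinusoidal endothelial cells (LSECs) of C57BL/6 mice aged 7 to 8 weeks, 3 from wild-type mice and 3 from mice with an endothelial conditional knockout of Rbpj (RBPjcKO). Mice of both genotypes received tamoxifen by intraperitoneal injection, which induces the deletion in RBPjcKO. Neither the Cre line nor the number of animals behind a library is stated in the labels, so each p-value reflects spread among libraries that may be technical. Rbpj is the nuclear partner of Notch, binding DNA and switching target genes when a receptor is activated.

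Caveolae are small flask-shaped pits of the plasma membrane. Caveolins form the coat embedded in the membrane, cavins wrap it from the cytosol, and Ehd2 forms a ring at the neck that holds the pit at the surface. Plvap assembles into the thin diaphragms that span caveolae, transendothelial channels and the fenestrae of many capillaries, whereas the fenestrae of adult liver sinusoids are known for lacking a diaphragm. The other Ehd proteins act on endosomes, where they help to return cargo to the surface. LSECs are known for intense clathrin-mediated uptake and scavenging.

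Because Rbpj binds DNA at the core letters TGGGAA, the promoters of the members were searched for them. RefSeq promoters on GRCm38.p6, 250 bases before to 50 after a start, were held for 7 of the 10 genes, 9 promoters in all. Those of Prkcdbp, Plvap and Ehd1 were not analysed here. The letters TGGGAA, or TTCCCA on the other strand, stood in the promoter of Ehd3 and in that of the upstream start of Cav1, and in no other of the 9. Across all 32851 promoters of this length 25.6% hold at least 1 match and 3.79% hold 2 or more. The longer form GTGGGAA, which overlaps the core, was in the Ehd3 promoter and in 6.38% of all promoters. The bases before the start are shown for Ehd3 and Cav1, which hold matches, and for Ehd4, which holds none. They run 5′ to 3′ on the gene's strand with the matches in capitals.
Ehd3, chr17:73804591-73804840, plus strand: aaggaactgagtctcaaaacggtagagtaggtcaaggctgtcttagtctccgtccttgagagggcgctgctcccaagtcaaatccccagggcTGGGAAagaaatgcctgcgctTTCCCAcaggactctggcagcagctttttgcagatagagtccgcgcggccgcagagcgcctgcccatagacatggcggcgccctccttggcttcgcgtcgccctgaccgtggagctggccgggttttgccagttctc
Cav1, chr6:17306085-17306334, plus strand: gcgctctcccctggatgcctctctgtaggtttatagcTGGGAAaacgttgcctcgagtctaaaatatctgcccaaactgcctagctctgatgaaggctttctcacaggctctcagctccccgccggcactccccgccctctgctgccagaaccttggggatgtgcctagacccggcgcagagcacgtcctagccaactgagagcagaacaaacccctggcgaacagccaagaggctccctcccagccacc
Ehd4, chr2:120154576-120154825, minus strand: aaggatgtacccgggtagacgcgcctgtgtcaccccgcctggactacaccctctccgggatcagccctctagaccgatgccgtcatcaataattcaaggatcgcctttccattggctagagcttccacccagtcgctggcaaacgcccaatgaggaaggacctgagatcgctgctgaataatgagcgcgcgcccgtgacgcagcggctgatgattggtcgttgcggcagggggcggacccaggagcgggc
In Ehd3 the matches lie on opposite strands, with leftmost bases at -158 and -137 from the start, with 15 bases between them. In Cav1 the leftmost base of the match is at -213. A match of letters is a description and was not tested as a binding site.

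The named genes received 30958761 to 40459702 counts per library, and the members between 264 counts, at Prkcdbp in a wild-type library, and 250922 counts, at Ehd3 in the same library. Rbpj, the targeted gene, stood at 44.7 ± 2.76 CPM in the wild-type libraries, against 18.1 ± 1.48 CPM in RBPjcKO libraries (SD, n = 3 each), counted over the whole gene (edgeR adjusted p = 0.000982). CPM are read counts relative to library size after TMM scaling, and a gene is called where its Benjamini-Hochberg adjusted p over all 14869 tested genes, from the quasi-likelihood test in edgeR, is under 0.05. Of the 8 LSEC markers (Stab1, Stab2, Lyve1, Clec4g, Fcgr2b, Pecam1, Cdh5 and Kdr) 1 was called by edgeR (5 had an unadjusted p under 0.05, and DESeq2 called 5). This was Clec4g, lower at 3570 ± 302 and 1927 ± 349 CPM. Stab1, Stab2, Lyve1, Pecam1 and Cdh5 had positive log2 fold changes (0.07 to 0.39), and Fcgr2b and Kdr negative ones (-0.24 and -0.40). The median over the 8 markers was 0.19. With changes in both directions, their summed level ran from 21188 to 24326 CPM in the wild-type libraries, against from 20326 to 24135 CPM in RBPjcKO. The SE of the members' log2 fold changes ran from 0.08 at Ehd4 to 0.27 at Prkcdbp.

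Of the 10 genes, 3 rose in RBPjcKO (Ptrf, Plvap and Ehd1), 2 fell (Ehd3 and Ehd4) and 5 did not pass the test. Across all tested genes 16.7% were called, 9.0% higher and 7.74% lower. DESeq2 called 8 of the 10 genes, against 24.4% of all genes. Ptrf, Ehd3 and Ehd4 were called with all libraries and without any 1 of them, as were 4.94% of all tested genes. The libraries of the groups did not overlap for 8 of the 10 genes, all but Cav2 and Prkcdbp, and for 40.3% of all tested genes. The median log2 fold change was -0.34 over the members, with caveolins, cavins and Ehd genes on both sides of 0, and -0.0047 over all tested genes. The median size of change without sign was 0.56 on the log2 scale for the members and 0.29 for all tested genes. In bulk libraries fewer cells of a type and less RNA per cell cannot be told apart.

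**Figure D1:**
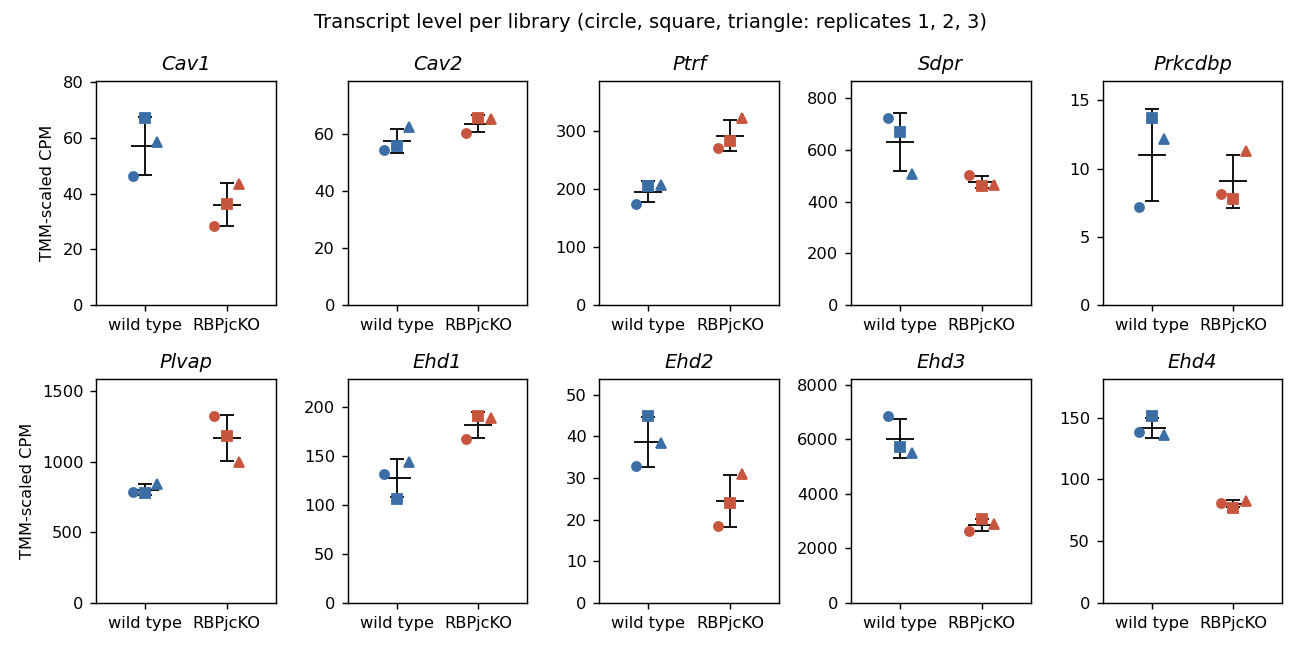
TMM-scaled CPM of each gene in the 3 wild-type and 3 RBPjcKO libraries, with the group mean and SD as black bars and every axis starting at 0. The groups are apart for 8 genes and overlap for Cav2 and Prkcdbp.

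The deepest change was in Ehd3, which encodes an ATPase of endosome recycling that is abundant in LSECs (chromosome 17, 73804841 to 73832093, GRCm38, 6 exons in GENCODE M21). It stood at 6846, 5718 and 5504 CPM in wild-type replicates 1, 2 and 3 and at 2643, 3081 and 2889 CPM in the RBPjcKO libraries. Every RBPjcKO library lay below every wild-type library. This was a 2.10-fold fall (log2 fold change -1.07, SE 0.13, edgeR adjusted p = 0.00404), and all 6 refits on 5 libraries called it too (-1.14 to -0.97). By deposited RPKM, which also divides by gene length, Ehd3 ranked 13 to 16 among the named genes in wild-type libraries and 46 to 62 in RBPjcKO libraries. It took 0.562% to 0.657% of the counts of named genes in the first group and 0.260% to 0.306% in the second.

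Ehd4, which acts at early endosomes, fell as well (chromosome 2, 120089487 to 120154575). Its levels were 138, 151 and 136 CPM in the wild-type libraries, against 81.3, 77.1 and 82.7 CPM in RBPjcKO libraries, with little spread within either group. The fall was 1.77-fold (log2 fold change -0.82, SE 0.08, edgeR adjusted p = 0.00194), and all 6 refits on 5 libraries called it (-0.85 to -0.78).

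Ehd1, which works on the tubules of the recycling compartment, moved the other way (chromosome 19, 6276896 to 6300096). It stood at 132, 106 and 144 CPM in the wild-type libraries, against 167, 190.5 and 188 CPM in RBPjcKO libraries, all 3 above the highest wild-type value. The rise was 1.43-fold (log2 fold change 0.51, SE 0.13, edgeR adjusted p = 0.0332). The call was kept without wild-type replicate 3 (adjusted p = 0.0384) and lost without each of the other 5 libraries, where edgeR's adjusted p ran up to 0.0917.

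Ehd2, the ATPase of the caveola neck (chromosome 7, 15948987 to 15967535), did not pass the test. Its levels were 32.9, 44.9 and 38.5 CPM in the wild-type libraries, against 18.5, 24.1 and 31.0 CPM in RBPjcKO libraries, each below the lowest wild-type value (log2 fold change -0.66, SE 0.20, edgeR adjusted p = 0.0614). It was called by DESeq2 (adjusted p = 0.0136), with upper-quartile scaling (edgeR adjusted p = 0.0467) and without RBPjcKO replicate 3 (edgeR adjusted p = 0.0295). The entry of Ehd2 does not cover the 3′ end of the RefSeq gene, whose lowest coordinate on this minus-strand gene is 15946963.

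Within the Ehd family, Ehd3 made up most of the transcript per length in every library. Its share of the summed RPKM of the 4 genes was 95.3%, 94.4% and 93.9% in wild-type and 89.8%, 90.3% and 89.4% in RBPjcKO libraries, so the groups did not overlap. The difference of means was -4.70 percentage points (94.5% ± 0.696 and 89.8% ± 0.453, SD, n = 3 each, two-sided exact permutation p = 0.1, the smallest that 3 against 3 libraries allow). The share of Ehd1 was 2.11%, 2.01% and 2.82% in wild-type and 6.51%, 6.42% and 6.69% in RBPjcKO libraries. The share of Ehd4 overlapped between the groups, at 2.43% ± 0.317 and 2.73% ± 0.272 (exact permutation p = 0.3). The RPKM of Ehd4 per RPKM of Ehd1 was 0.986, 1.34 and 0.888 in wild-type and 0.458, 0.380 and 0.413 in RBPjcKO libraries. The summed RPKM of the family was 1455 ± 117 and 724 ± 61.0, while that of Ehd1, Ehd2 and Ehd4 together was 79.2 ± 4.00 and 73.6 ± 5.84 (exact permutation p = 0.1 and 0.3). In all, 19 such shares, sums and ratios were compared within this set of genes, and an exact permutation p of 0.1 becomes 0.173 with Benjamini-Hochberg adjustment over them.

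In GENCODE M21 transcripts (GRCm38), coding sequences of the 4 Ehd genes were 68.0% to 79.7% identical, most alike for Ehd1 and Ehd3, whose longest exact run in the alignment was 40 bases. No stretch of 50 bases was shared by the transcripts of any pair of the 10 genes, and reads were 150 bases long. How reads were assigned between the Ehd genes was not tested. Opposite-strand entries overlap 5 of the genes, and without a known strand setting reads from the shared stretch cannot be told apart. Relative to the gene's own count in the same library, the counts of these whole entries were 43.6% to 51.2% at Ehd2, 28.1% to 35.9% at Prkcdbp and 17.7% to 20.6% at Ptrf. At Ehd2, Prkcdbp and Ptrf the entry also reaches outside the gene's span, so these percentages do not give the part of the gene's count in doubt. At Sdpr and Ehd3 the entries held 0 to 2 counts a library.

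**Figure D2:**
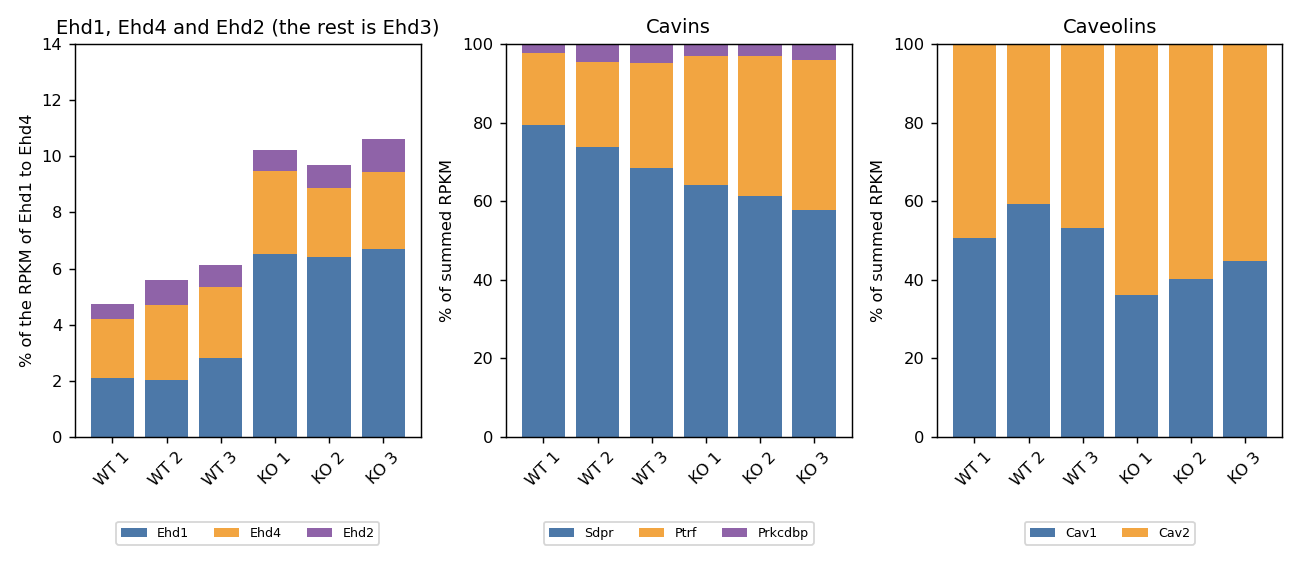
Share of summed deposited RPKM in each library (WT, wild type, and KO, RBPjcKO) for Ehd1, Ehd4 and Ehd2 among the 4 Ehd genes, for the 3 cavins, and for the caveolins. Ehd1 and Ptrf take a larger share, and Sdpr and Cav1 a smaller one, in each RBPjcKO library than in any wild-type library.

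Among the cavins, Ptrf, without which caveolae do not form, rose (chromosome 11, 100956736 to 100970617). It stood at 174, 206 and 206 CPM in the wild-type libraries, against 270.5, 282 and 322 CPM in RBPjcKO libraries, with a clear gap between the groups. The rise was 1.49-fold (log2 fold change 0.58, SE 0.11, edgeR adjusted p = 0.0145) and all 6 refits on 5 libraries called it (0.50 to 0.62). Sdpr, which helps to bend the membrane of caveolae, is the most abundant cavin here (chromosome 1, 51289126 to 51302960). Its levels were 721, 667 and 505 CPM in the wild-type libraries, against 502, 461 and 465 CPM in RBPjcKO, where the third wild-type library lay just above the first RBPjcKO library. Sdpr was not called (log2 fold change -0.41, SE 0.14, edgeR adjusted p = 0.0853). It was called by DESeq2 (adjusted p = 0.0391) and without wild-type replicate 3 (log2 fold change -0.55, edgeR adjusted p = 0.0317).

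Prkcdbp, the third cavin, had the lowest counts of the set (chromosome 7, 105480616 to 105482197). It stood at 7.20, 13.7 and 12.1 CPM in the wild-type libraries, against 8.11, 7.77 and 11.3 CPM in RBPjcKO libraries, and the groups overlapped (log2 fold change -0.28, SE 0.27, edgeR adjusted p = 0.487). Its wild-type libraries alone spanned 0.92 on the log2 scale, more than the fold change.

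The shares of Sdpr and Ptrf in the cavin transcript did not overlap between the groups, while the cavin sum did. Sdpr took 79.4%, 73.8% and 68.5% of the summed cavin RPKM in wild-type and 64.1%, 61.3% and 57.8% in RBPjcKO libraries. Ptrf took 18.2%, 21.6% and 26.6% in wild-type and 32.8%, 35.6% and 38.0% in RBPjcKO libraries. The difference of means was -12.8 percentage points for Sdpr and 13.3 for Ptrf (two-sided exact permutation p = 0.1 for each, the smallest possible). Summed cavin RPKM was 233 ± 25.5 and 211 ± 8.40 (SD, n = 3 each, exact permutation p = 0.4).

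Cav1, the main coat protein of endothelial caveolae (chromosome 6, 17306335 to 17341328), lay just outside the threshold. It stood at 46.2, 67.0 and 58.4 CPM in the wild-type libraries, against 28.3, 36.3 and 43.6 CPM in RBPjcKO libraries, all 3 below the lowest wild-type value. It differed by -0.67 on the log2 scale (SE 0.19), at an adjusted p of 0.0506 in edgeR and 0.00766 in DESeq2. In the refits on 5 libraries its edgeR adjusted p lay between 0.0376 and 0.144, and it was called without wild-type replicate 1 (0.0448) and without RBPjcKO replicate 3 (0.0376). With all libraries, edgeR also called it with upper-quartile scaling (adjusted p = 0.0393), no filter (0.0399), a filter of at least 5 counts in 3 libraries (0.0456) and clones included (0.0492), which makes 7 of 16 alternatives with DESeq2 and these refits.

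Cav2, the partner that assembles with Cav1 in the same coat, lies 17204 bases upstream of it on the same strand (chromosome 6, 17281185 to 17289130). Its levels were 54.4, 55.9 and 62.5 CPM in the wild-type libraries, against 60.4, 65.6 and 65.4 CPM in RBPjcKO libraries, and the groups overlapped (log2 fold change 0.15, SE 0.09, edgeR adjusted p = 0.269). The pair therefore differed in sign, though neither was called. Cav1 made up 50.7%, 59.2% and 53.1% of summed caveolin RPKM in wild-type and 36.2%, 40.1% and 44.7% in RBPjcKO libraries, a difference of -14.0 percentage points (exact permutation p = 0.1, two-sided, the smallest possible). The RPKM sum of the caveolins was 31.8 ± 4.58 and 26.6 ± 3.32, which overlapped.

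**Figure D3:**
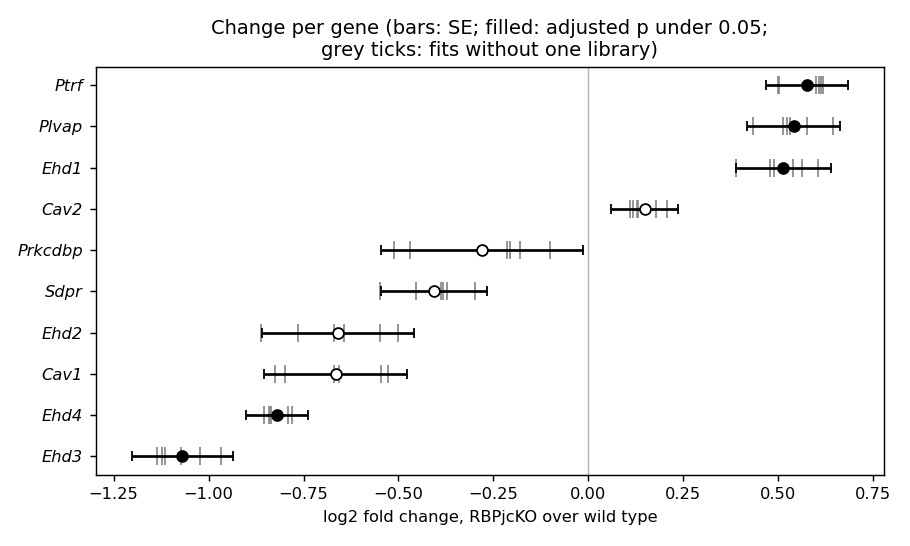
Log2 fold change of each gene (RBPjcKO over wild type) with its SE, filled where called, and grey ticks for the fits without 1 library. Ehd3 and Ehd4 lie farthest below 0, and Ptrf, Plvap and Ehd1 lie above it.

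Plvap rose (chromosome 8, 71497753 to 71511769). It stood at 783, 779.6 and 843 CPM in the wild-type libraries, against 1321, 1183 and 993 CPM in RBPjcKO, and the RBPjcKO libraries varied more (802 ± 35.8 and 1166 ± 165 CPM, SD, n = 3 each). The rise was 1.45-fold (log2 fold change 0.54, SE 0.12, edgeR adjusted p = 0.0272). The call was kept without RBPjcKO replicate 3 (log2 fold change 0.64, edgeR adjusted p = 0.0165). It was lost without each of the other 5 libraries, at log2 fold changes of 0.43 to 0.57 and an edgeR adjusted p of up to 0.106. Per RPKM of Cav1, the RPKM of Plvap was 23.2, 15.98 and 19.8 in wild-type and 64.1, 44.8 and 31.3 in RBPjcKO libraries (exact permutation p = 0.1, the smallest possible). Per RPKM of Plvap, that of Ehd3 was 4.82, 4.04 and 3.60 in wild-type and 1.10, 1.43 and 1.603 in RBPjcKO libraries, again without overlap.

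Ordered by RPKM, wild-type libraries held Ehd3 (1376 ± 121, SD, n = 3), Plvap (333 ± 20.7), Sdpr (173 ± 28.3), Ptrf (51.0 ± 6.35), Ehd4 (35.1 ± 2.90), Ehd1 (33.5 ± 4.83), Cav1 (17.4 ± 3.68), Cav2 (14.4 ± 1.35), Ehd2 (10.6 ± 1.98) and Prkcdbp (9.05 ± 3.02). The ranges of the neighbours Ehd4 and Ehd1, Cav1 and Cav2, and Ehd2 and Prkcdbp overlapped, although Cav1 was above Cav2 in each of the 3 libraries. In RBPjcKO libraries the order was the same down to Ptrf, with Ehd3 at 650.3 ± 56.2, Plvap at 478 ± 61.0, Sdpr at 129 ± 4.53 and Ptrf at 75.1 ± 7.88. Below it, Ehd1 (47.3 ± 4.01) stood above Ehd4 (19.7 ± 0.790) and Cav2 (15.8 ± 0.940) above Cav1 (10.8 ± 2.44), in each case without overlap. Prkcdbp (7.33 ± 1.67) and Ehd2 (6.66 ± 1.79) closed the list, and their ranges overlapped, as did those of Cav1 and Prkcdbp.

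**Figure D4:**
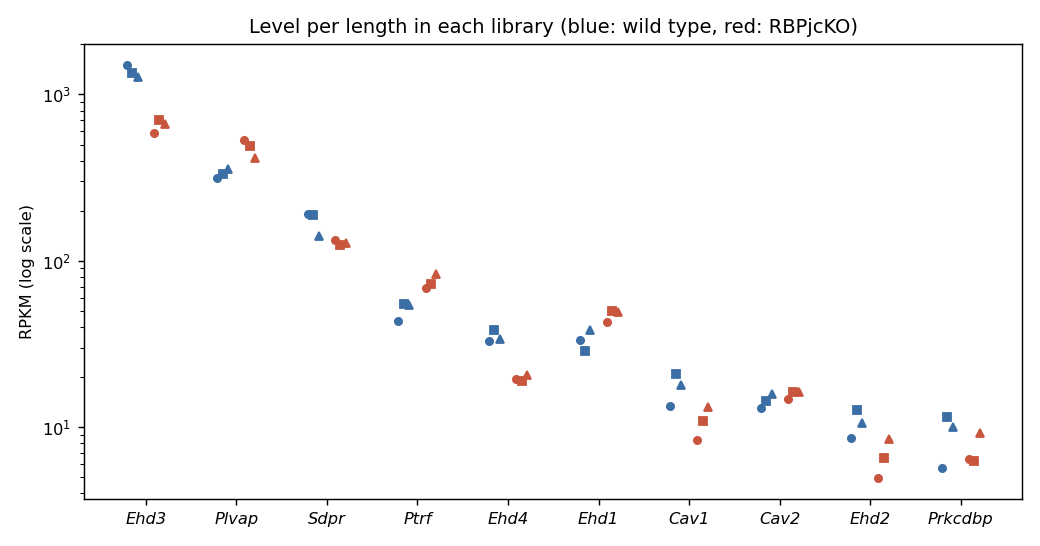
Deposited RPKM of each gene in every library on a log axis, blue for wild type and red for RBPjcKO, with circles, squares and triangles for replicates 1, 2 and 3. Wild-type means span from 1376 RPKM at Ehd3 to 9.05 at Prkcdbp.

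Within the groups, Cav1 and Ehd2 stood in the same order of libraries. Relative to the group mean of log2 CPM, Cav1 was at -0.29, 0.24 and 0.05 in wild-type and at -0.33, 0.03 and 0.30 in RBPjcKO libraries, and Ehd2 at -0.23, 0.22 and 0.00 in wild-type and at -0.37, 0.00 and 0.37 in RBPjcKO libraries. The RPKM of Ehd2 per RPKM of Cav1 was 0.615 ± 0.0244 in wild-type and 0.612 ± 0.0274 in RBPjcKO libraries (SD, n = 3 each, exact permutation p = 0.8). Prkcdbp followed the same order in wild-type libraries and was also highest in RBPjcKO replicate 3. Plvap ran against these genes in RBPjcKO libraries, at 0.19, 0.03 and -0.22. With 3 libraries a group, these orders are a description.

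**Figure D5:**
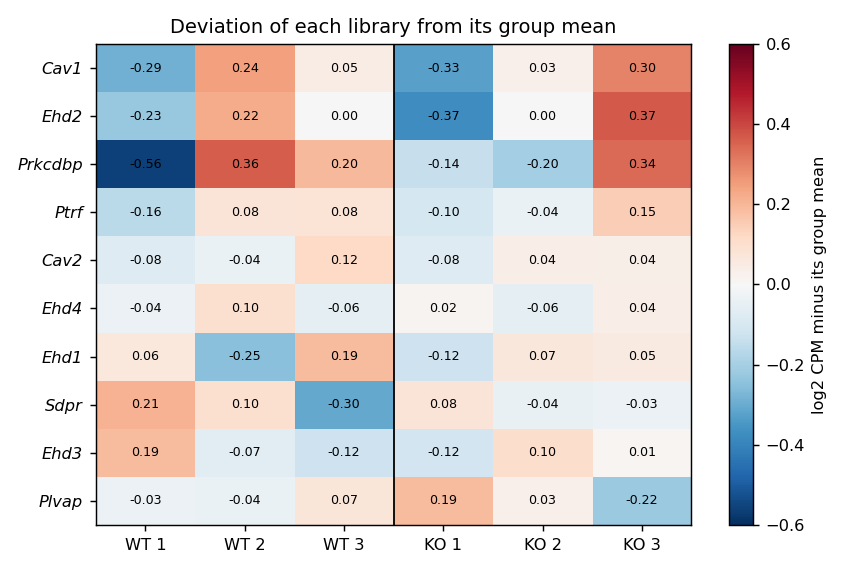
Log2 CPM of each gene in each library minus the mean of its group, by colour and number, with wild type (WT) to the left of the line and RBPjcKO (KO) to the right. Cav1 and Ehd2 deviate alike in all 6 libraries, and Plvap deviates the other way in RBPjcKO replicates 1 and 3.

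Markers of other cells that can accompany LSECs moved too. Of 7 cholangiocyte markers 4 were called, all lower (7 had an unadjusted p under 0.05, and DESeq2 called 5). Every cholangiocyte marker had a negative log2 fold change, with a median of -1.45. The sum of this list ran from 191 to 390.0 CPM in the wild-type libraries, against from 83.7 to 123 CPM in RBPjcKO libraries. Of 10 hepatocyte markers 3 were called, all higher (8 had an unadjusted p under 0.05, and DESeq2 called 6). Every hepatocyte marker had a positive log2 fold change, with a median of 1.07. Their sums ran from 1150.4 to 2099.6 and 1444 to 4134 CPM. The highest sum was in RBPjcKO replicate 3, which had the lowest Plvap and the highest Cav1 and Ehd2 of its group. In the wild-type libraries it was highest in replicate 1, which had the lowest Cav1 and Ehd2 of its group. Of 10 stellate cell and fibroblast markers 2 were called, Reln and Dcn, both lower, with sums of 1871 to 2102 and 1205 to 1879 CPM. The median log2 fold change of this list was -0.20. Des, Col1a1, Col1a2 and Col3a1 had positive values (0.08 to 0.39) that did not pass the test, and the remaining markers negative ones. By edgeR none of 9 Kupffer cell, 6 mesothelial or 4 tested smooth muscle markers was called, with 3, 3 and 1 at an unadjusted p under 0.05 and 2, 1 and 1 called by DESeq2. Every Kupffer cell and mesothelial marker had a negative log2 fold change. Medians were -1.06 for Kupffer cells, -1.34 for mesothelium and -0.59 for smooth muscle. Their sums ran from 1087 to 2364 and 539 to 1395 CPM for Kupffer cells, from 68.2 to 238 and 27.1 to 105 CPM for mesothelium, and from 21.5 to 28.7 and 16.8 to 35.9 CPM for smooth muscle. Of 8 lymphocyte markers the B cell genes Cd79a (means of 1.97 and 4.93 CPM) and Ms4a1 (0.21 and 0.98 CPM) were called higher. The median log2 fold change of this list was -0.57, with sums of 39.1 to 49.9 and 15.1 to 63.5 CPM. The T and NK cell genes Cd3e, Cd3d, Nkg7, Klrb1c and Gzma had negative values that did not pass the test. Of 7 granulocyte and erythroid markers 2 were called higher, Mpo (means of 0.12 and 5.53 CPM) and Elane (0.10 and 1.75 CPM). The sums of that list (60.2 to 288 and 265 to 575 CPM) came mostly from S100a8 and S100a9, which were not called. Ms4a1, Mpo and Elane lay near the floor in the wild-type libraries. Krt19 is in both the cholangiocyte and the mesothelial list. No marker of these lists was at 0 in all 6 libraries. The mesothelial sum was lowest in wild-type replicate 1 and RBPjcKO replicate 1 (68.2 and 27.1 CPM), which were also the lowest libraries of their groups for Cav1 and Ehd2. The cholangiocyte sum was likewise lowest in RBPjcKO replicate 1 (83.7 CPM). Among wild-type libraries it was highest in replicate 2 (390.0 CPM), as Cav1 and Ehd2 were, but lowest in replicate 3 (191 CPM). The part of these cells in the changes of the members was not tested.

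Genes of related membrane machinery were called at 15.4% (caveola partners), 21.4% (clathrin and AP2) and 16.1% (recycling), beside 16.7% of all tested genes. Of 13 tested caveola partners, out of 15 listed, 1 rose and 1 fell, at a median log2 fold change of 0.07. Flot2, which encodes the raft protein flotillin-2, rose 1.45-fold from 82.3 ± 14.5 to 119 ± 12.96 CPM, and Src, the kinase that phosphorylates Cav1, fell 1.57-fold from 20.6 ± 1.41 to 13.2 ± 2.82 CPM (edgeR adjusted p = 0.0418 and 0.0393). Both calls were lost in 5 of the 6 fits without a library.

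Of 28 genes of clathrin coats and the AP2 adaptor, 5 rose and 1 fell, with a median log2 fold change of 0.08. Bin1, which senses membrane curvature, rose 2.24-fold from 32.0 ± 0.986 to 71.9 ± 11.1 CPM (edgeR adjusted p = 0.00235), and Ap2s1, the small AP2 subunit, rose 1.58-fold from 139.6 ± 11.8 to 220.4 ± 4.64 CPM (edgeR adjusted p = 0.00495). Both kept their calls in each fit without a library. Synj1, a phosphatase of coat removal, fell 1.27-fold (69.1 ± 2.18 to 54.5 ± 3.53 CPM), and Sh3gl1, which encodes an endophilin, rose 1.27-fold (145 ± 4.72 to 183 ± 14.3 CPM), and each was called in 1 of the 6 fits without a library.

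Of 31 genes of endocytic recycling, 3 rose and 2 fell, with a median of 0.11. Rab11fip3 rose 1.54-fold from 98.8 ± 6.43 to 152 ± 22.8 CPM, while Rab11fip4 fell 2.12-fold from a low level, 2.87 ± 0.544 to 1.36 ± 0.370 CPM, where both encode effectors of Rab11. The small GTPase genes Rab8b and Rab5c rose 1.37-fold and 1.27-fold (53.0 ± 5.38 to 72.6 ± 2.59 and 427 ± 13.9 to 542 ± 21.9 CPM). Without 1 library, Rab11fip3 and Rab8b were each called in 3 of 6 fits, Rab5c in 1 and Rab11fip4 in 0 (edgeR adjusted p 0.0609 to 0.139 for the last, called with all libraries at 0.0481).

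The profiles most like those of Ehd3 and Plvap over the 6 libraries were sought among 9057 other genes with a mean of at least 10 CPM. Likeness was the root mean square difference of log2 CPM after each gene's own mean was removed. Since libraries of both genotypes entered it, genes chosen this way share the difference between genotypes by selection. Closest to Ehd3 were Ceacam1, an adhesion molecule gene (0.0630), Podxl, which encodes the sialomucin podocalyxin (0.0653), and Mertk, a receptor kinase gene for the uptake of dying cells (0.0745). Podxl stood at 967, 761 and 703 CPM in the wild-type libraries, against 361, 383 and 364 CPM in RBPjcKO, and Mertk at 554, 498 and 423 CPM in the wild-type libraries, against 231, 249 and 222 CPM in RBPjcKO. Closest to Plvap were Abhd17a, a depalmitoylase gene (0.0676), Gmpr, which encodes GMP reductase (0.0706), and Man1c1, a Golgi mannosidase gene (0.0765). Man1c1 stood at 147, 152 and 149 CPM in the wild-type libraries, against 230.4, 223 and 202 CPM in RBPjcKO libraries.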

How the data were processed

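RNA sequencing libraries of LSECs, 3 wild-type and 3 RBPjcKO, were grouped by the genotype label and numbered in sample order. The submitters' processing notes name bcl2fastq, TopHat2 2.0.13 and the build mm10 (GRCm38). How reads were counted, on which annotation and whether by strand, is not stated there, and overlapping genes on opposite strands cannot be told apart. The deposited table gives, per the file headers, read counts for each entry and RPKM, which the authors scaled to entry length and, as the values show, to the total of the same library's counts.

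The 33353 cDNA clone entries were left out of the main comparison, since many overlap named genes, and 1 emptied entry was not used. Counts of 23472 named genes were passed through filterByExpr (at least 10 counts, total at least 15). After TMM scaling, the genotypes were tested in edgeR 4.0.16 (quasi-likelihood F, R 4.3.3), with Benjamini-Hochberg adjustment over all tested genes. The SE is the size of the log2 fold change over the square root of F. Shares and ratios used RPKM within a library, with exact permutation tests (scipy 1.17.1). The script was tested on simulated counts. Alternatives were DESeq2 1.42.0, limma 3.58.1 on log2(RPKM + 1) and log2(RPKM + 0.1), other scalings and filters, clones included, a robust fit, adjusted p under 0.01, and leaving out each library. The alternatives for the cavin and caveolin shares were chosen after seeing the data.

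The members, lists and tests were chosen with earlier results of these data known. Named genes are the members, Rbpj, up to 4 called genes of each pathway list by size of change, and the 3 genes most like Ehd3 and Plvap. Clec4g and the other cell type markers singled out were named outside this rule, after their values were seen.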

Additional observations from a re-analysis of the deposited data

Results flagged for a closer look

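Signal in data outside the main comparison was higher in RBPjcKO than in wild-type libraries for 2 cDNA clone entries that overlap Ptrf, in the fit with clones included. The entry on the opposite strand, which reaches past the start of Ptrf, had 1312, 1363 and 1176 counts in wild-type and 1964, 2103 and 2370 counts in RBPjcKO libraries (log2 fold change 0.59, SE 0.10, edgeR adjusted p = 0.0113). The entry over the 3′ end on the gene's own strand had 1939, 2641 and 2125 counts in wild-type and 3216, 3376 and 3793 counts in RBPjcKO libraries (log2 fold change 0.48, SE 0.12, edgeR adjusted p = 0.0404). Their counts equalled 17.7% to 20.6% and 29.8% to 34.3% of those of Ptrf in the same library, so they are not independent of it where reads are counted in both.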

How the results depend on the processing

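No member changed sign under any alternative run. Ptrf, Ehd3 and Ehd4 were called under every alternative but 1, an adjusted p under 0.01, at which Ptrf (0.0145) was not called and Ehd3 and Ehd4 were. Genes called higher and lower among the members numbered 3 and 2. By DESeq2 they were 3 and 5, with upper-quartile scaling 3 and 4, with no filter, at least 5 counts in 3 libraries or clones included 3 and 3, and at an adjusted p under 0.01 by edgeR 0 and 2 (3 and 5 at an unadjusted p under 0.05). When a library was left out they ranged from 1 to 2 higher (1 when replicate 1 or 2 of either genotype was absent) and from 2 to 4 lower, the 4 without RBPjcKO replicate 3. Genes called at large numbered 2489, 605 at an adjusted p under 0.01, and 796 to 1836 without a library, where 796 was without wild-type replicate 2, 1549 without wild-type replicate 3 and 1433 without RBPjcKO replicate 2. Caveola partners called numbered 1 with upper-quartile scaling or library totals, 0 by limma on either RPKM scale or at an adjusted p under 0.01 (4 at an unadjusted p under 0.05 in each, 3 by DESeq2), and 0 to 1 without a library. Clathrin and AP2 genes numbered 11 by DESeq2, 2 at an adjusted p under 0.01, and 2 to 4 without a library. Recycling genes numbered 3 with clones included, 0 at an adjusted p under 0.01 (11 at an unadjusted p under 0.05, 7 by DESeq2), and 0 to 4 without a library. The cause of these shifts was not tested. The Ehd3 share difference ran from -5.01 to -4.33 percentage points without a library. No paired analysis was possible because the labels give no number shared between the groups.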

Other observations

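Clone entries inside other members give a view of parts of each gene, from reads that the gene's own count may share. In Ehd3 a clone on the gene's strand that begins 110 bases after the start and is 2711 bases long had 46053, 38296 and 32998 counts in wild-type and 20808, 25275 and 23064 counts in RBPjcKO libraries (log2 fold change -0.92, SE 0.13, edgeR adjusted p = 0.00629 with clones included). This clone is as long as its span on the chromosome and runs past the first exon of Ehd3, which is 629 bases in GENCODE M21. It is therefore not simply a piece of the spliced transcript. Its counts were 18.4%, 17.9% and 19.0% of those of Ehd3 in wild-type and 20.4%, 20.4% and 20.5% in RBPjcKO libraries, without overlap. In Ehd4 the 3 clones on the gene's strand had log2 fold changes of -0.87, -0.84 and -1.03 (edgeR adjusted p = 0.00380, 0.00402 and 0.0266), beside -0.82 for the gene. The first of these clones lies wholly within the second, at the 3′ end, so their values are not independent where reads are counted in both. The clone over the 3′ end of Cav1 had a log2 fold change of -0.64 (SE 0.22, edgeR adjusted p = 0.0925), and Cav1 itself was called in that fit (-0.66, edgeR adjusted p = 0.0492).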
